A study of Mus musculus with 48 samples.

Results

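Subcutaneous white fat of wild-type mice was compared between a cystine-deficient diet and a control diet, over all genes. The comparison used 8 of the 48 libraries of the series: 4 libraries numbered 7, 8, 10 and 11 from Cth+/+ mice on the cystine-deficient diet (CysF), and 4 libraries numbered 1, 2, 3 and 4 from Cth+/+ mice on the control diet (CTRL). They were taken by depot, genotype and diet as given in the labels. All mice were male and ate their diet for 6 days, after which fat was snap frozen and poly(A) RNA was sequenced. The series also holds Cth-/- mice on both diets, and brown (BAT) and visceral (EFAT) fat, in 12 groups of 4 libraries. Cth encodes cystathionine gamma-lyase, which completes the synthesis of cysteine and is missing in the Cth-/- mice. The Cth+/+ mice used here carry it, so that the comparison asks how white fat responds when dietary cystine alone is withdrawn. Age, strain background and whether each library came from a separate mouse were not given, and p-values therefore measure the spread between these libraries.

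Cysteine is taken up as cystine through the transporter encoded by Slc7a11 or made from methionine through the transsulfuration enzymes Cbs and Cth, and it feeds glutathione, taurine and coenzyme A. Cells short of an amino acid are known to translate the transcription factor ATF4, which induces amino acid transporters and synthetases, and cells short of glutathione to stabilise NRF2. White fat also follows the hormones of fasting: glucocorticoids act through a nuclear receptor on genes such as Fkbp5 and Per1, and the tissue keeps a circadian clock of Per, Cry and Nr1d genes that oppose activators such as Clock and Npas2.

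Total expected counts were 27.1 ± 4.18 M in CysF and 23.9 ± 6.88 M in CTRL libraries (SD, n = 4 each), with a range of 16.2 to 32.9 M. The difference did not pass an exact two-sided permutation test (p = 0.543), for which 0.0286 is the smallest p that 4 against 4 libraries allow. The share of counts from mitochondrially encoded genes was 8.42 ± 1.30% in CysF and 10.0 ± 3.13% in CTRL libraries (exact p = 0.457). Levels below are CPM scaled by TMM, always in the library order 7, 8, 10, 11 for CysF and 1, 2, 3, 4 for CTRL, and differences are log2 fold changes, CysF minus CTRL, with their SE. Adipoq, the fat cell hormone adiponectin, had 1359.8, 1595, 1591 and 1554 CPM in the CysF libraries, against 1604, 2037, 2040.0 and 1944 CPM in the CTRL libraries. Of 10 listed adipocyte markers, 9 were found by symbol among the counted genes, and these 9 were all above the low-count filter. Cth had 4.99, 9.55, 3.68 and 10.3 CPM in the CysF libraries, against 11.9, 10.2, 7.67 and 8.36 CPM in the CTRL libraries. These ranges overlapped, and the difference of -0.41 ± 0.33 (SE, adjusted p = 0.601) did not pass the test. The libraries also fell into set A, with under 0.1 CPM of the pseudogene Gm43512, and set B, with more. CysF libraries 8 and 11 and CTRL libraries 1 and 2 belonged to set A, and CysF libraries 7 and 10 and CTRL libraries 3 and 4 to set B. Each set thus held 2 libraries of each diet, and values within each set are given where they matter.

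In Cth+/+ subcutaneous fat 11 of 16555 tested genes (0.0664%) changed with the diet, 9 of them higher in CysF (0.0544%) and 2 lower (0.0121%), at an adjusted p under 0.05. The test was edgeR's quasi-likelihood test on the 16 subcutaneous libraries. Known protein-coding genes among them were Hif3a, Lrrc8c, Doc2b, Fam107a, Fkbp5, Rnf169, Pawr, Per2 and Wee1, which rose, and Echdc3, which fell. The eleventh, the predicted long noncoding RNA gene Gm44386, had 1.66, 1.77, 1.76 and 2.87 CPM in the CysF libraries, against 4.07, 4.41, 3.67 and 5.03 CPM in the CTRL libraries, and fell by 1.09 ± 0.19 on the log2 scale (SE). It lies outside the rule for named genes and is given because the count of falls was small. All 11 had the same adjusted p of 0.0459, close to the threshold. Without CTRL library 1, 2, 3 or 4, or without CysF library 8 or 10, 0 genes passed (unadjusted p under 0.05 for 1494 to 2319 genes). Without CysF library 11, 199 passed (1.19%), 153 higher (0.913%) and 46 lower (0.274%). DESeq2 called 400 genes (2.42%), which included all 11, with 288 higher (1.74%) and 112 lower (0.677%). A fit of the 8 Cth+/+ libraries alone called 3 genes in edgeR (0.0195%), 1 higher (0.00649%) and 2 lower (0.013%), and none of them was among the 11. In DESeq2 that fit called 367 (2.38%), all 11 included, with 237 higher (1.54%) and 130 lower (0.844%). Within set A 13 genes passed (0.0771%), all higher (0.0771%), and within set B 1053 (6.1%), 791 higher (4.58%) and 262 lower (1.52%). With the set as a term 64 passed (0.387%), 38 higher (0.23%) and 26 lower (0.157%). The sign of all 11 was the same under each of 19 alternatives. The groups of these 11 genes did not overlap, so that refits of the same libraries had little room to change a sign. Below the threshold, 2310 genes (14.0%) had an unadjusted p under 0.05, 1288 of them higher in CysF (7.78%) and 1022 lower (6.17%), and in 1141 genes (6.89%) the CPM of the groups did not overlap. The median log2 fold change of all tested genes was -0.02. These shares are the background for each count of list members below.

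Genes of the glucocorticoid and fasting response held 2 of the rises, Fkbp5 and Hif3a. Fkbp5 encodes a co-chaperone that binds the glucocorticoid receptor and is a widely used readout of its activity. Fkbp5 had 63.5, 99.4, 105 and 166 CPM in the CysF libraries, against 28.6, 32.7, 29.9 and 19.9 CPM in the CTRL libraries. Every CysF library lay above every CTRL library, and Fkbp5 rose by 1.96 ± 0.33 (SE, adjusted p = 0.0459) on the log2 scale. Hif3a had 3.88, 5.32, 4.82 and 7.13 CPM in the CysF libraries, against 1.00, 1.13, 2.00 and 1.39 CPM in the CTRL libraries, again without overlap, and Hif3a, which encodes an alpha subunit of the hypoxia-inducible factors, rose by 1.93 ± 0.29 (SE, adjusted p = 0.0459). Both rises were present in each library set, at 2.11 in set A and 1.79 in set B for Fkbp5 and at 2.53 in set A and 1.39 in set B for Hif3a. Fkbp5 lies at chr17:28399094-28517527 and Hif3a at chr7:17031507-17062427, both on the minus strand (GRCm38, GENCODE M21).

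Promoters were searched in 9 entries for 7 of the 10 named genes, with several entries for Fam107a. Per2, Wee1 and Doc2b had no entry, so that whether their promoters hold these elements is not known. The promoter of Fkbp5 is shown because this gene rose. Among the 9 entries it alone held an E-box, the element read by the clock activators. The bases run from 250 before to 50 after the transcript start, chr17:28486100-28486399 on the minus strand (GRCm38.p6, RefSeq), and the capitals mark the E-box CACGTG, which begins at base 82.
Fkbp5: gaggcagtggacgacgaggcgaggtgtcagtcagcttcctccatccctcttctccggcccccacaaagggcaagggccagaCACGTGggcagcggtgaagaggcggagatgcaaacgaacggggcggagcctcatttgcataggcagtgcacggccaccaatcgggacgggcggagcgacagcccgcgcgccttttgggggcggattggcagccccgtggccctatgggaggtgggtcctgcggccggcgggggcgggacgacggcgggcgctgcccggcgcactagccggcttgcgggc
CACGTG, which reads the same on both strands, occurs in 7.15% of the 32851 promoters of that table. The palindromic glucocorticoid response element was in none of the 9 entries and in 0.00913% of all promoters, and the D-box TTANGTAA was in none of the 9 and in 2.32% of all, each searched on both strands. A match describes the letters of this window only.

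Of the 26 tested members of the glucocorticoid and fasting list, 2 passed and 9 were higher in CysF at an unadjusted p under 0.05, with none lower (7.78% and 6.17% over all genes); DESeq2 called 7, all higher. The median log2 fold change was 0.17, 0.41 within set A and 0.23 within set B. Members ran from -1.03 to 1.96, with 20 above 0 and 6 below. The next members by p were chosen after their values were seen. Tsc22d3, the glucocorticoid-induced leucine zipper, had 110.3, 187, 144 and 247 CPM in the CysF libraries, against 63.3, 81.0, 89.5 and 90.2 CPM in the CTRL libraries, and the groups did not overlap. For Tsc22d3 the difference was 1.09 ± 0.21 (SE, adjusted p = 0.0598). Zbtb16, a zinc finger factor that glucocorticoids are known to induce, had 94.9, 102, 149.7 and 209.7 CPM in the CysF libraries, against 46.4, 55.0, 74.9 and 47.0 CPM in the CTRL libraries, also without overlap. For Zbtb16 the difference was 1.32 ± 0.36 (SE, adjusted p = 0.147). Klf9, a Krüppel-like factor, and the forkhead factors Foxo1 and Foxo3 also did not overlap between the groups, at log2 differences of 0.58 ± 0.14, 0.77 ± 0.16 and 0.48 ± 0.12. Other known targets of the receptor had overlapping groups: the differences were, for the kinase gene Sgk1, 0.41 ± 0.25, for Klf15 0.00 ± 0.27, for the metallothionein gene Mt1 -0.10 ± 0.30 and for Pdk4, which restrains glucose oxidation, -0.04 ± 0.49. Rasd1, a dexamethasone-inducible Ras gene outside the list, was lower in CysF without overlap, at -1.27 ± 0.44, and did not pass. The receptor gene Nr3c1 had 251, 227, 219.6 and 201 CPM in the CysF libraries, against 259, 258, 216 and 277 CPM in the CTRL libraries (-0.17 ± 0.10 SE, adjusted p = 0.463). The summed level of the list was 2890.5, 3138, 3953 and 3473 CPM in the CysF libraries, against 2365, 2572, 2752 and 3525 CPM in the CTRL libraries, which overlapped.

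Among clock genes Per2, which encodes a repressor of the core loop, rose. Per2 had 13.5, 14.4, 25.1 and 19.1 CPM in the CysF libraries, against 4.96, 6.39, 8.30 and 3.37 CPM in the CTRL libraries, without overlap, a change of 1.64 ± 0.28 (SE, adjusted p = 0.0459), with 1.55 within set A and 1.75 within set B. Wee1, a kinase that holds back entry into mitosis and is known in mouse liver as a clock output, rose as well. Wee1 had 4.00, 5.80, 8.78 and 6.58 CPM in the CysF libraries, against 2.65, 2.69, 1.67 and 2.56 CPM in the CTRL libraries, without overlap. For Wee1 the difference was 1.39 ± 0.24 (SE, adjusted p = 0.0459). Of 21 clock genes tested, Per2 passed alone, while 5 were higher and 6 lower at an unadjusted p under 0.05, beside 7.78% and 6.17% of all genes. The higher ones besides Per2 were Nr1d2, Dbp, Per1 and Tef, and the lower ones included Npas2, Cry2 and Bhlhe40, names chosen after the values were seen. Nr1d2, a REV-ERB repressor, had 81.0, 68.4, 79.5 and 72.6 CPM in the CysF libraries, against 47.4, 52.0, 37.8 and 61.0 CPM in the CTRL libraries, without overlap. For Nr1d2 the difference was 0.60 ± 0.13 (SE, adjusted p = 0.0775). Npas2, a paralogue of the activator Clock, had 7.13, 6.04, 5.03 and 5.40 CPM in the CysF libraries, against 8.91, 10.2, 14.6 and 14.5 CPM in the CTRL libraries, also without overlap. For Npas2 the difference was -1.03 ± 0.23 (SE, adjusted p = 0.0817). Per1 had 39.1, 78.7, 59.3 and 95.3 CPM in the CysF libraries, against 27.6, 30.1, 41.6 and 48.8 CPM in the CTRL libraries, which overlapped, and the difference of 0.88 ± 0.31 (SE, adjusted p = 0.233) was 1.59 within set A and 0.16 within set B. Clock itself differed by 0.00 ± 0.10 and Nr1d1 by 0.22 ± 0.20. The time of day of tissue collection was not given in the labels, and its part in these values was not tested. The list's median log2 fold change was 0.08, with 12 members above 0 and 9 below.

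The other rises were in genes of other roles. Lrrc8c, a subunit of the volume-regulated anion channel, had 54.5, 73.1, 61.1 and 76.2 CPM in the CysF libraries, against 36.8, 37.0, 43.8 and 41.7 CPM in the CTRL libraries, and rose by 0.73 ± 0.12 (SE, adjusted p = 0.0459). Doc2b, a calcium sensor of vesicle fusion that takes part in insulin-driven glucose transport in fat cells, had 2.81, 3.18, 3.80 and 4.81 CPM in the CysF libraries, against 1.06, 1.38, 1.21 and 1.44 CPM in the CTRL libraries, and rose by 1.51 ± 0.25 (SE, adjusted p = 0.0459). Fam107a, an actin-binding protein of the stress response, had 10.0, 15.6, 14.3 and 23.7 CPM in the CysF libraries, against 2.89, 3.24, 4.96 and 5.12 CPM in the CTRL libraries, and rose by 1.97 ± 0.32 (SE, adjusted p = 0.0459). None of these groups overlapped. Pawr, a pro-apoptotic partner of WT1, had 4.48, 6.70, 5.68 and 7.20 CPM in the CysF libraries, against 2.01, 2.39, 3.34 and 2.92 CPM in the CTRL libraries, and rose by 1.17 ± 0.20 (SE, adjusted p = 0.0459). Rnf169, a protein of DNA double-strand break repair, had 27.5, 30.2, 30.8 and 28.4 CPM in the CysF libraries, against 21.2, 18.4, 21.5 and 19.3 CPM in the CTRL libraries, and rose by 0.54 ± 0.09 (SE, adjusted p = 0.0459). The change of Rnf169 was 0.57 within set A and 0.55 within set B; Lrrc8c, Fam107a and Pawr had larger values within set A (1.02, 2.67 and 1.65) than within set B (0.47, 1.31 and 0.74). Each of the 10 named genes passed in 8 to 12 of the 19 alternatives. Their positions on GRCm38 are chr5:105519388-105613018 (Lrrc8c), chr11:75768966-75796049 (Doc2b), chr14:8296274-8318023 (Fam107a), chr10:108332121-108414240 (Pawr), chr7:99920254-99980448 (Rnf169), chr1:91415982-91459324 (Per2) and chr7:110122046-110143286 (Wee1).

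Echdc3, which encodes a mitochondrial protein with an enoyl-CoA hydratase domain, was the protein-coding gene that fell. Echdc3 had 14.1, 14.7, 13.1 and 16.6 CPM in the CysF libraries, against 23.0, 19.5, 21.9 and 21.0 CPM in the CTRL libraries. The groups did not overlap, and the fall was -0.54 ± 0.09 (SE, adjusted p = 0.0459), with -0.43 within set A and -0.62 within set B. The gene lies at chr2:6188465-6213033 on the minus strand. Its promoter is shown as the only one of the 9 entries with an antioxidant response element, the letters read by NRF2 (TGACNNNGC, both strands, in 12.4% of all promoters). It covers chr2:6212945-6213244 on the minus strand (GRCm38.p6, RefSeq), and the capitals mark the element, which lies on the opposite strand from base 255.
Echdc3: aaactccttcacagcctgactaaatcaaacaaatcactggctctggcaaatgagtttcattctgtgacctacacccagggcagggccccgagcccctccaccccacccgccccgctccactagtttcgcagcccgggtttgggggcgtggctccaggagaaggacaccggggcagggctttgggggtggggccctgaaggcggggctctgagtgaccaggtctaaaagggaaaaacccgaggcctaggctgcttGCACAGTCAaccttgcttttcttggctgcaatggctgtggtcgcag
The C/EBP-ATF element TGATGNAA, read by ATF4, was in none of the 9 entries and in 3.97% of all promoters, on both strands.

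**Figure D1:**
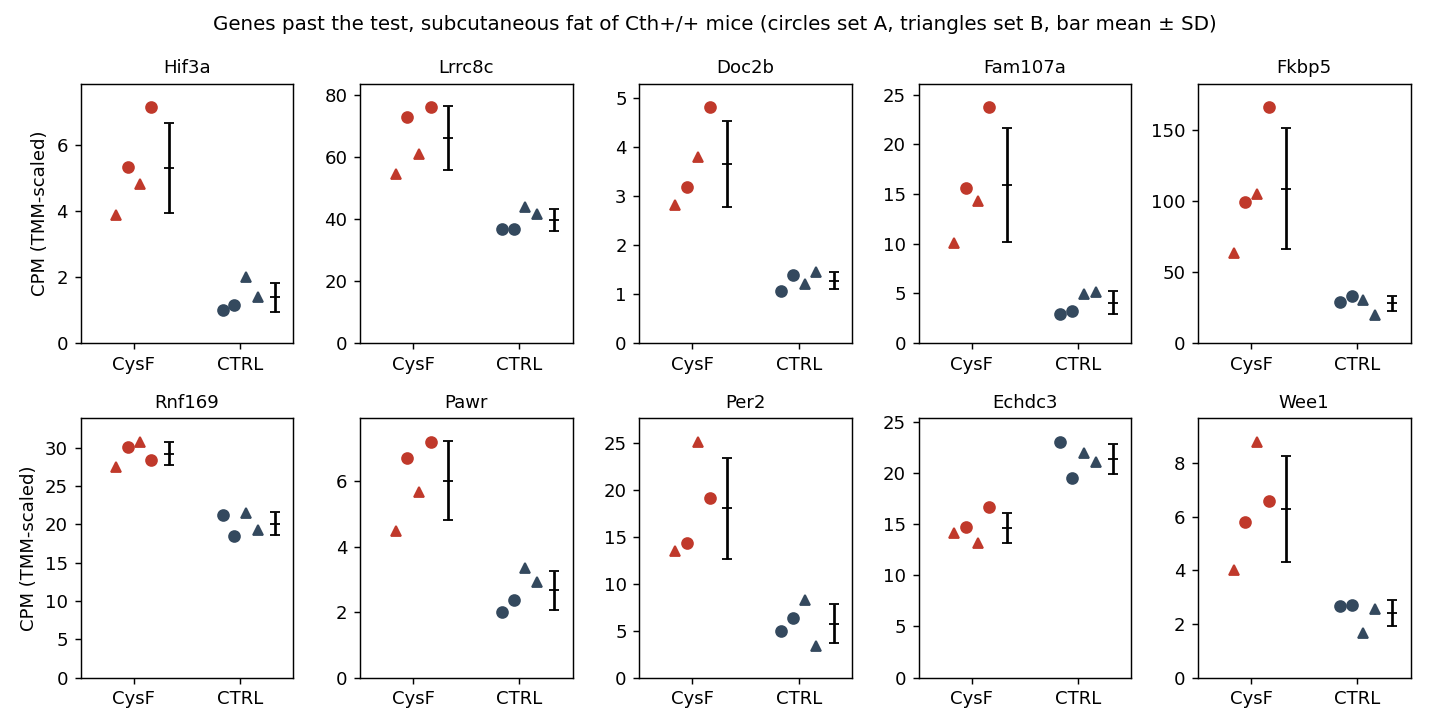
Level of each of the 10 named genes past the test (y axis, CPM scaled by TMM, from 0) in 4 CysF and 4 CTRL libraries of Cth+/+ subcutaneous fat; circles are set A and triangles set B libraries, and the bar is the mean ± SD. The CysF points lie above the CTRL points for 9 genes, as for Fkbp5 with 63.5 CPM or more in CysF and 32.7 CPM or less in CTRL, and below them for Echdc3.

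Genes of collagen and the extracellular matrix had higher fitted levels in CysF, but 0 of 46 passed in edgeR. At an unadjusted p under 0.05 34 of 46 were higher and none lower, against 7.78% and 6.17% of all genes; DESeq2 called 17, all higher; and 17 did not overlap between the groups, all higher (3.1% of all genes). The summed level of the list was 40755, 31255, 38640.0 and 28560.0 CPM in the CysF libraries, against 23154, 25030.0, 19977 and 20058 CPM in the CTRL libraries, with every CysF library above every CTRL library. Col1a1, a chain of type I collagen, had 3868, 1579.8, 3538 and 1294 CPM in the CysF libraries, against 940.3, 1091, 908 and 804 CPM in the CTRL libraries, without overlap. For Col1a1 the difference was 1.46 ± 0.41 (SE, adjusted p = 0.156). Postn, the matrix protein periostin, had 839, 402, 882 and 237 CPM in the CysF libraries, against 205, 189, 195 and 249 CPM in the CTRL libraries (1.49 ± 0.35 SE, adjusted p = 0.0919), and CysF library 11 lay within the CTRL range. The CysF libraries 7 and 10, both of set B, were the highest for both genes, while libraries 8 and 11 lay closer to the CTRL libraries. Col6a5, a collagen VI chain, had 12.0, 5.59, 12.9 and 2.11 CPM in the CysF libraries, against 1.48, 1.47, 3.29 and 1.12 CPM in the CTRL libraries (2.14 ± 0.58 SE, adjusted p = 0.146), again with overlap through CysF library 11. Col3a1 had 8689, 5155, 7810.1 and 4470.0 CPM in the CysF libraries, against 3612, 3979.8, 2552 and 2878 CPM in the CTRL libraries (1.00 ± 0.28 SE, adjusted p = 0.154), without overlap. The list's median log2 fold change was 0.60, 0.30 within set A and 0.88 within set B.

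Markers of fibroblasts and progenitor cells were highest in CysF libraries 7 and 10, as the matrix sum was. Their summed level was 6948, 5081, 6488 and 4268 CPM in the CysF libraries, against 4237, 4801, 4713 and 4147 CPM in the CTRL libraries, which overlapped; 0 of 16 passed in edgeR, 1 in DESeq2, and 5 were higher and none lower at an unadjusted p under 0.05. Gdf10, a growth factor of progenitor cells, had 95.9, 58.8, 80.4 and 39.4 CPM in the CysF libraries, against 36.4, 29.0, 41.6 and 39.4 CPM in the CTRL libraries (0.91 ± 0.23 SE, adjusted p = 0.121), with CysF library 11 within the CTRL range. Fbn1, which encodes fibrillin, differed by 0.78 ± 0.26, 0.22 within set A and 1.28 within set B. The median of the list was 0.03 within set A and 0.82 within set B. In bulk tissue a change in the number of cells of a type and a change in RNA per cell cannot be told apart.

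Interferon response genes also had higher fitted levels in CysF, in both library sets. In edgeR 0 of 26 tested members passed; 20 were higher and none lower at an unadjusted p under 0.05 (7.78% and 6.17% of all genes). DESeq2 called 14, all higher (1.74% of all genes). The summed level was 1190.0, 1609, 1434 and 1148 CPM in the CysF libraries, against 1056, 1058, 972 and 956 CPM in the CTRL libraries, without overlap. Ifit1, an RNA-binding antiviral protein, had 33.1, 72.5, 48.7 and 35.8 CPM in the CysF libraries, against 23.3, 19.7, 17.5 and 22.5 CPM in the CTRL libraries, without overlap (1.20 ± 0.24 SE, adjusted p = 0.0647), a member named after its values were seen. Oas3, an enzyme that senses double-stranded RNA, had 13.0, 11.4, 23.6 and 5.92 CPM in the CysF libraries, against 4.31, 4.71, 5.30 and 4.04 CPM in the CTRL libraries, without overlap. For Oas3 the difference was 1.55 ± 0.39 (SE, adjusted p = 0.116). Oasl1 had 9.66, 12.2, 19.0 and 6.89 CPM in the CysF libraries, against 4.07, 4.89, 5.80 and 5.12 CPM in the CTRL libraries (1.26 ± 0.30 SE, adjusted p = 0.104), and CysF library 10 was the highest for both Oas genes. The Oas and Oasl genes are a family of similar sequences, and reads shared between them were apportioned by the authors' counting. The median log2 fold change was 0.74, 0.68 within set A and 0.64 within set B.

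Macrophage markers were highest in CysF libraries 7 and 10. Their summed level was 3797, 1903, 3494 and 1301 CPM in the CysF libraries, against 1327, 1737, 1819.5 and 1489.9 CPM in the CTRL libraries. CysF library 8 lay just above all CTRL libraries, and CysF library 11 was the lowest of all 8. In edgeR 0 of 16 passed, with 8 higher and none lower at an unadjusted p under 0.05 and 3 higher in DESeq2. Trem2, a receptor of lipid-associated macrophages, had 15.3, 5.20, 17.4 and 1.59 CPM in the CysF libraries, against 1.95, 2.63, 3.13 and 1.35 CPM in the CTRL libraries. For Trem2 the difference was 2.11 ± 0.77 (SE, adjusted p = 0.245). Cd68, a lysosomal protein of macrophages, had 202, 56.7, 142 and 30.8 CPM in the CysF libraries, against 27.7, 43.5, 59.6 and 37.8 CPM in the CTRL libraries. For Cd68 the difference was 1.35 ± 0.56 (SE, adjusted p = 0.31). In both genes CysF libraries 7 and 10 lay above all CTRL libraries and library 11 within their range. CysF library 8 lay above all CTRL libraries for Trem2 and within their range for Cd68. The median of the list was 0.10 within set A and 1.15 within set B. The part of macrophages in the matrix and interferon values was not tested. Cell cycle genes had 12 of 25 members higher and none lower at an unadjusted p under 0.05 (0 past edgeR's adjusted threshold and 0 in DESeq2), with a median of 0.64, 0.55 within set A and 0.87 within set B. Top2a, a topoisomerase of dividing cells, had 25.9, 39.0, 16.8 and 24.2 CPM in the CysF libraries, against 18.1, 15.2, 7.05 and 9.71 CPM in the CTRL libraries (1.09 ± 0.46 SE, adjusted p = 0.317), and the groups overlapped.

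**Figure D2:**
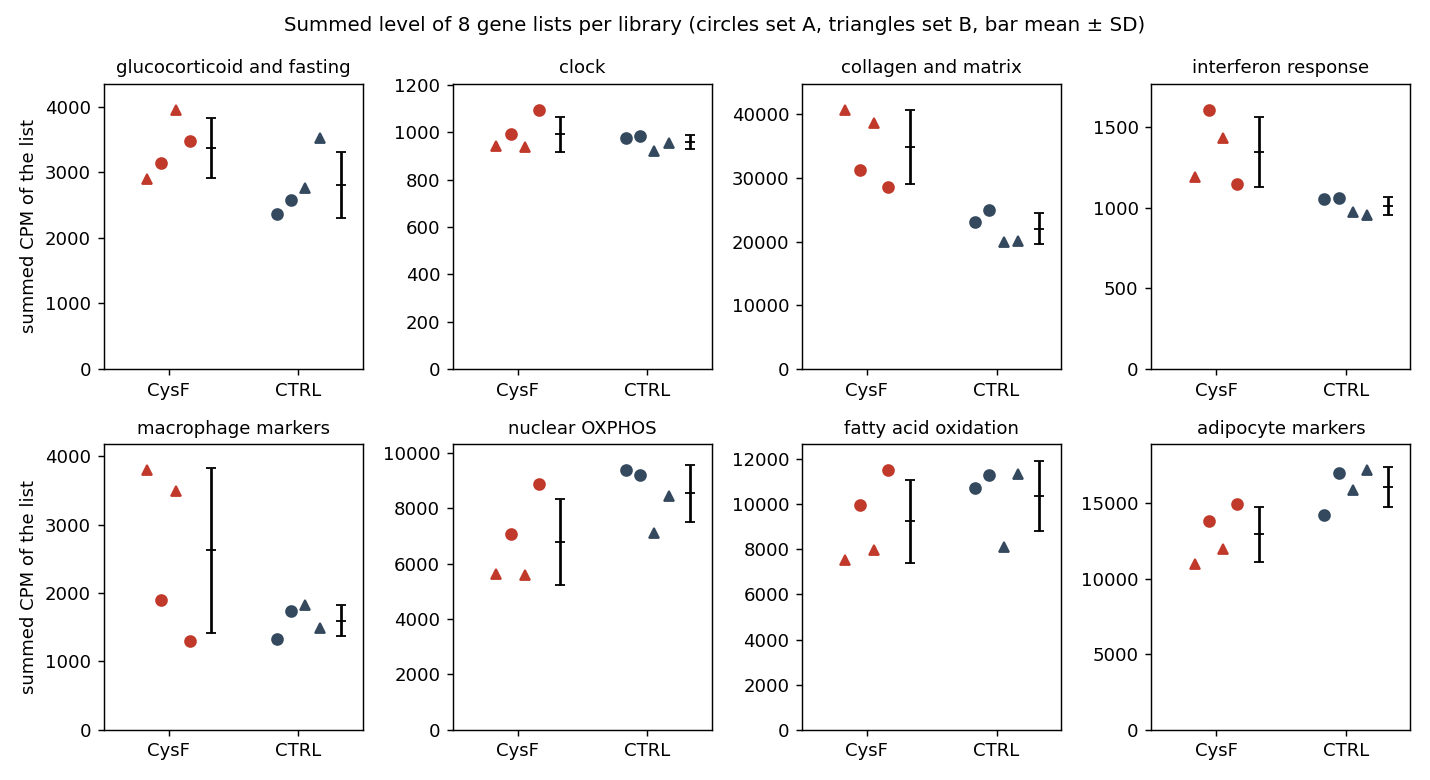
Summed CPM of the members of 8 gene lists (y axis, from 0) in each of the 4 CysF and 4 CTRL libraries of Cth+/+ subcutaneous fat; circles are set A and triangles set B libraries, and the bar is the mean ± SD. The matrix and interferon sums do not overlap between the diets. The macrophage sum is highest in CysF libraries 7 and 10, at 3797 and 3494 CPM. For CysF library 8 it lies just above the CTRL libraries, and for CysF library 11 below them.

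Nuclear genes of oxidative phosphorylation had lower fitted levels in CysF, with log2 differences of -0.54 to -0.15. Of 51 nuclear genes of oxidative phosphorylation, 0 passed in edgeR and 1 in DESeq2 (lower), 17 were lower and none higher at an unadjusted p under 0.05, and the fitted sign was negative for 51 of 51, against 8784 of 16555 genes. The summed level was 5610.2, 7057, 5590.4 and 8854 CPM in the CysF libraries, against 9365, 9205, 7103 and 8446 CPM in the CTRL libraries; CysF library 11 lay above CTRL libraries 3 and 4. Cox6c, a subunit of cytochrome c oxidase, had 76.8, 94.1, 75.3 and 118 CPM in the CysF libraries, against 156, 145, 109 and 119 CPM in the CTRL libraries. For Cox6c the difference was -0.54 ± 0.15 (SE, adjusted p = 0.153). Ndufb9, a subunit of complex I, had 63.9, 81.5, 67.1 and 111 CPM in the CysF libraries, against 125, 124, 93.2 and 109 CPM in the CTRL libraries (-0.48 ± 0.16 SE, adjusted p = 0.221), and both overlapped through CysF library 11. The median log2 fold change was -0.35, -0.24 within set A and -0.42 within set B. The 13 mitochondrially encoded genes all had a negative fitted sign, with 1 lower at an unadjusted p under 0.05 and none past edgeR's adjusted threshold. Their sum was 92303, 70597, 88510.0 and 73711 CPM in the CysF libraries, against 69168, 85751, 92577 and 155290.0 CPM in the CTRL libraries. CTRL library 4 was the highest and CTRL library 1 the lowest of all 8. Without CTRL library 4 the list's median was -0.098, against -0.40 with it, and the difference in the mitochondrial share of counts was -0.13 percentage points, against -1.59 with it.

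Fatty acid oxidation genes showed the same direction: 0 of 34 passed in edgeR and 3 in DESeq2 (lower), with 16 lower and 1 higher at an unadjusted p under 0.05 and a median of -0.39 (-0.29 within set A, -0.45 within set B). The sum was 7544, 9954, 7982 and 11506 CPM in the CysF libraries, against 10715, 11302, 8098 and 11346 CPM in the CTRL libraries, which overlapped. Cpt1b, the muscle and brown fat isoform of carnitine palmitoyltransferase, had 6.14, 5.17, 9.89 and 9.07 CPM in the CysF libraries, against 20.3, 13.1, 9.43 and 31.9 CPM in the CTRL libraries (-1.30 ± 0.44 SE, adjusted p = 0.222), and the low CTRL value of library 3 lay within the CysF range. Acsm3, a medium-chain acyl-CoA synthetase, had 8.24, 6.58, 15.3 and 8.20 CPM in the CysF libraries, against 16.9, 18.8, 15.8 and 33.4 CPM in the CTRL libraries (-1.15 ± 0.35 SE, adjusted p = 0.179), without overlap. Hadh, a dehydrogenase of beta oxidation, had 240.3, 259, 246 and 295 CPM in the CysF libraries, against 344, 357, 352 and 415 CPM in the CTRL libraries, without overlap (-0.50 ± 0.11 SE, adjusted p = 0.0817), named after its values were seen.

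Thermogenic genes were lower in sum, with 506, 453, 516 and 527 CPM in the CysF libraries, against 767, 604, 682 and 857 CPM in the CTRL libraries, and no overlap. Such a sum follows its most abundant members, and it was not recomputed without any of them. Of the genes given below, Adrb3 had by far the highest levels, whereas Ucp1 and Cidea overlapped between the groups. In edgeR 0 of 25 passed, 7 were lower and 1 higher at an unadjusted p under 0.05, and DESeq2 called 2 lower and 1 higher. Ucp1, the uncoupling protein of brown and beige fat cells, had 3.64, 0.991, 19.4 and 1.52 CPM in the CysF libraries, against 26.5, 8.78, 1.92 and 67.6 CPM in the CTRL libraries. The CTRL libraries themselves covered a wide range that held 2 of the 4 CysF values, and the difference of -2.05 ± 1.02 (SE, adjusted p = 0.383) did not pass. Cidea, a lipid droplet protein of brown and beige fat, had 19.4, 11.6, 35.2 and 17.2 CPM in the CysF libraries, against 53.9, 38.1, 33.8 and 89.8 CPM in the CTRL libraries (-1.37 ± 0.39 SE, adjusted p = 0.16), with CysF library 10 above CTRL library 3. Adrb3, the adrenergic receptor of fat cells, had 222, 183, 186 and 174 CPM in the CysF libraries, against 309, 239, 359.8 and 288 CPM in the CTRL libraries (-0.64 ± 0.25 SE, adjusted p = 0.279), without overlap. Dio2, which makes active thyroid hormone, differed by 0.17 ± 0.66, Elovl3 by -0.62 ± 0.76 and the coactivator gene Ppargc1a by -0.27 ± 0.23, with 95% intervals of -1.24 to 1.59, -2.22 to 0.99 and -0.75 to 0.22.

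Genes of cysteine and glutathione metabolism were not called: 0 of 25 passed in edgeR or DESeq2, and 7 were lower and 1 higher at an unadjusted p under 0.05, with a median of -0.21. Cbs, the enzyme that makes cystathionine, had 2.61, 3.12, 2.70 and 2.46 CPM in the CysF libraries, against 3.19, 4.77, 4.46 and 3.10 CPM in the CTRL libraries, with CysF library 8 within the CTRL range. For Cbs the difference was -0.52 ± 0.26 (SE, adjusted p = 0.384). Slc7a11, the cystine transporter, had 2.18, 1.71, 0.981 and 0.796 CPM in the CysF libraries, against 0.531, 1.25, 0.792 and 0.539 CPM in the CTRL libraries (0.83 ± 0.53 SE, adjusted p = 0.497), so that the highest values were in CysF libraries 7 and 8 and the ranges overlapped. Gclc, the catalytic subunit of the rate-limiting step of glutathione synthesis, had 24.6, 25.6, 26.4 and 25.6 CPM in the CysF libraries, against 28.5, 26.2, 31.9 and 29.2 CPM in the CTRL libraries (-0.18 ± 0.11 SE, adjusted p = 0.472), with CysF library 10 above CTRL library 2. Got1, an aspartate aminotransferase, differed by 0.70 ± 0.32, 0.26 within set A and 1.04 within set B. Chac1, an enzyme that degrades glutathione and a known ATF4 target, had 1.66, 1.77, 1.06 and 2.46 CPM in the CysF libraries, against 3.42, 3.18, 2.59 and 1.80 CPM in the CTRL libraries (-0.65 ± 0.28 SE, adjusted p = 0.317), with CysF library 11 within the CTRL range. The methionine cycle had 0 of 14 members past either test and 1 at an unadjusted p under 0.05, Mtr, which encodes methionine synthase (0.28 ± 0.12).

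ATF4 targets and other stress genes showed no common direction. Of 45 ATF4 targets and stress genes 0 passed in edgeR, 9 were higher and 4 lower at an unadjusted p under 0.05, DESeq2 called 2 higher and 2 lower, and the median was 0.07. Atf4 had 83.6, 79.6, 83.5 and 101 CPM in the CysF libraries, against 86.8, 90.7, 102 and 75.9 CPM in the CTRL libraries, and its difference of -0.03 ± 0.11 (SE, adjusted p = 0.924) had a 95% interval of -0.26 to 0.20. Asns, asparagine synthetase, had 36.9, 42.1, 32.6 and 48.8 CPM in the CysF libraries, against 48.9, 63.6, 47.6 and 55.1 CPM in the CTRL libraries, with CysF library 11 above CTRL library 3. For Asns the difference was -0.42 ± 0.13 (SE, adjusted p = 0.186). Atf3, a stress-induced factor, had 10.0, 7.63, 12.3 and 9.17 CPM in the CysF libraries, against 3.60, 5.05, 6.13 and 3.46 CPM in the CTRL libraries, without overlap. For Atf3 the difference was 1.09 ± 0.37 (SE, adjusted p = 0.224). Ddit3 differed by 0.07 ± 0.18, Trib3 by -0.38 ± 0.36 and Aldh1l2, a mitochondrial folate enzyme, by 0.90 ± 0.29. The secreted stress factors Fgf21 and Gdf15 stayed at or below 1.03 CPM in all 8 libraries. Amino acid transporters had 5 of 21 higher and none lower at an unadjusted p under 0.05, with 0 past edgeR's adjusted threshold and 1 in DESeq2, and a median of 0.29. Their fitted sign was positive for 18 and negative for 3. Slc1a1, a glutamate and cysteine transporter, had 3.41, 13.8, 4.70 and 17.0 CPM in the CysF libraries, against 6.25, 4.22, 5.76 and 4.36 CPM in the CTRL libraries (0.93 ± 0.40 SE, adjusted p = 0.322), high in CysF libraries 8 and 11 of set A, with library 10 within the CTRL range and library 7 below it.

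NRF2 targets lay on both sides of 0, with 3 of 27 higher and 5 lower at an unadjusted p under 0.05, against 7.78% and 6.17% of all genes. None passed edgeR's adjusted threshold, and DESeq2 called 2 each way (1.74% and 0.677% of all genes). Hmox1, haem oxygenase, had 68.8, 41.6, 78.5 and 33.6 CPM in the CysF libraries, against 28.0, 33.3, 36.0 and 27.5 CPM in the CTRL libraries (0.83 ± 0.24 SE, adjusted p = 0.167). CysF libraries 7, 8 and 10 lay above all CTRL libraries, with 7 and 10 the highest, while library 11 lay within the CTRL range. Within set A the difference was 0.29 and within set B 1.25. Nqo1, a quinone reductase, had 3.25, 4.48, 3.96 and 4.15 CPM in the CysF libraries, against 5.13, 4.77, 5.17 and 4.90 CPM in the CTRL libraries (-0.33 ± 0.20 SE, adjusted p = 0.467), without overlap. Gclm, the modifier subunit of glutathione synthesis, had 36.8, 43.9, 35.4 and 55.9 CPM in the CysF libraries, against 48.1, 48.7, 29.9 and 47.5 CPM in the CTRL libraries, and these ranges overlapped. For Gclm the difference was -0.02 ± 0.17 (SE, adjusted p = 0.976). Endoplasmic reticulum chaperones and other genes of the unfolded protein response had 6 of 21 higher and none lower at an unadjusted p under 0.05, 0 past the adjusted threshold of edgeR or DESeq2, and 20 of 21 positive signs. Manf, a secreted stress protein, had 42.3, 36.0, 50.3 and 37.7 CPM in the CysF libraries, against 29.9, 33.0, 30.0 and 30.9 CPM in the CTRL libraries (0.42 ± 0.13 SE, adjusted p = 0.178), without overlap, and Hspa5, the chaperone BiP, differed by 0.34 ± 0.12. Both were larger in set B (0.64 and 0.51) than in set A (0.23 and 0.23).

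Lipid storage genes gave no call in edgeR. None of 22 genes of fatty acid synthesis and none of 13 of triglyceride assembly had an unadjusted p under 0.05 or passed in edgeR or DESeq2, with medians of -0.16 and -0.12. The sign of both turned with the set: within set A the medians were 0.048 and 0.058, and within set B -0.41 and -0.30. Fasn, fatty acid synthase, had 15114, 16928, 12451 and 27818 CPM in the CysF libraries, against 24097, 20311, 15668 and 18602 CPM in the CTRL libraries (-0.12 ± 0.36 SE, adjusted p = 0.912), with the lowest value in CysF library 10 and the highest in CysF library 11. Scd1, the stearoyl-CoA desaturase, had 32404, 50429, 36867 and 61760.0 CPM in the CysF libraries, against 56848, 62406, 38793 and 61692 CPM in the CTRL libraries, with overlap. For Scd1 the difference was -0.28 ± 0.33 (SE, adjusted p = 0.74). The lipase genes Pnpla2 and Lipe differed by -0.27 ± 0.13 and -0.21 ± 0.16. G0s2, an inhibitor of adipose triglyceride lipase, had 141, 132, 87.6 and 149.9 CPM in the CysF libraries, against 233, 197, 209 and 170.3 CPM in the CTRL libraries, without overlap. For G0s2 the difference was -0.66 ± 0.22 (SE, adjusted p = 0.204). Of 20 genes of lipolysis and the lipid droplet 4 were lower and none higher at an unadjusted p under 0.05, with 0 past edgeR and 1 in DESeq2. In the cholesterol list the 2 of 25 genes with an unadjusted p under 0.05 were Abca1 and Abcg1, the sterol exporters, both higher and both called by DESeq2. Abcg1 had 40.6, 39.1, 54.0 and 29.6 CPM in the CysF libraries, against 19.6, 26.3, 25.2 and 20.1 CPM in the CTRL libraries, without overlap. For Abcg1 the difference was 0.84 ± 0.26 (SE, adjusted p = 0.179).

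Adipocyte genes had slightly lower fitted levels. All 9 tested adipocyte markers had a negative fitted sign, 3 with an unadjusted p under 0.05 (0 past edgeR, 1 in DESeq2), and their summed level was 10966, 13858, 11986 and 14956 CPM in the CysF libraries, against 14255, 17006, 15888 and 17190.0 CPM in the CTRL libraries, overlapping through CysF library 11 and CTRL library 1. Fabp4, the fatty acid binding protein of fat cells, had 4879, 6111, 5633 and 6344 CPM in the CysF libraries, against 6562, 8100.0, 7078 and 8884 CPM in the CTRL libraries, without overlap (-0.42 ± 0.15 SE, adjusted p = 0.244), and Adipoq, given above, did not overlap either (-0.32 ± 0.12 SE, adjusted p = 0.256). Lep, the hormone leptin, had 377, 1040.5, 305 and 1398 CPM in the CysF libraries, against 817, 1175, 550.0 and 609.6 CPM in the CTRL libraries (-0.01 ± 0.56 SE, adjusted p = 0.995), with CysF values both above and below all CTRL values. Insulin signalling genes had 1 of 20 higher and 1 lower at an unadjusted p under 0.05 and 0 past edgeR or DESeq2; Irs2, an insulin receptor substrate, had 32.8, 33.1, 76.9 and 30.2 CPM in the CysF libraries, against 35.6, 34.8, 24.7 and 37.8 CPM in the CTRL libraries, with CysF library 10 alone high. Coenzyme A synthesis had 1 of 15 lower at an unadjusted p under 0.05 and 0 past either tool: Ppcdc, at -0.43 ± 0.14.

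**Figure D3:**
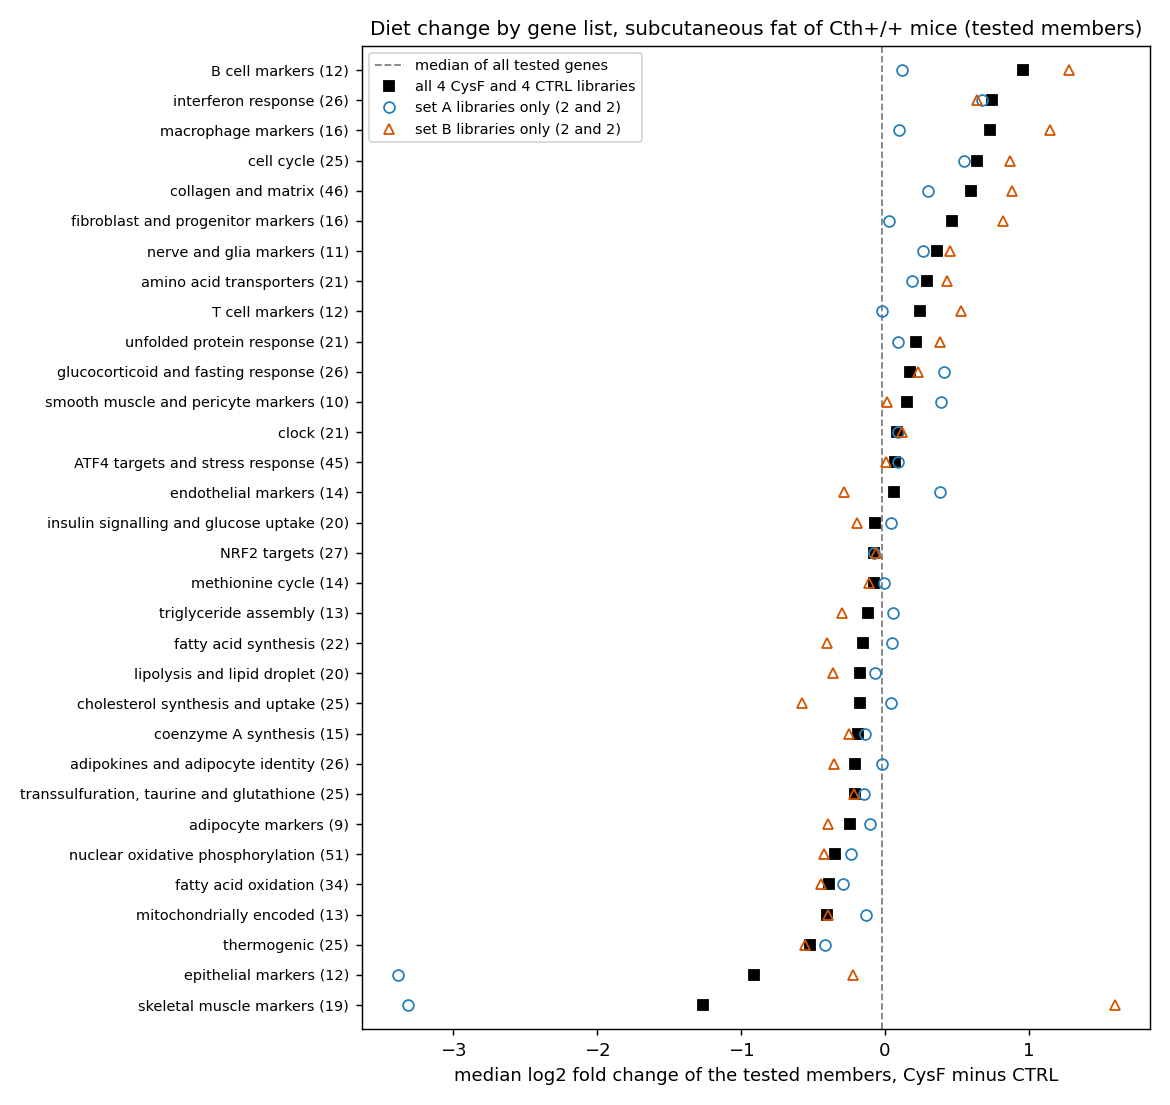
Median log2 fold change, CysF minus CTRL (x axis), of the tested members of 32 gene lists, with the number of members in brackets; black squares use all 8 libraries, blue circles set A and orange triangles set B, and the dashed line is the median of all genes (-0.02). Interferon genes lie at 0.68 in set A and 0.64 in set B, the matrix and macrophage medians are larger in set B, and muscle and epithelial markers split widely between the sets.

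Traces of other tissues varied between libraries within each diet. Skeletal muscle markers summed to 264, 131, 96.7 and 82.0 CPM in the CysF libraries, against 626, 250.4, 74.2 and 129.7 CPM in the CTRL libraries, with CTRL library 1 the highest. Epithelial markers summed to 3.92, 4.63, 50.3 and 1.94 CPM in the CysF libraries, against 46.5, 1.96, 51.1 and 2.92 CPM in the CTRL libraries, high in 1 CysF and 2 CTRL libraries. None of the 19 muscle or 12 epithelial markers had an unadjusted p under 0.05 or was called by edgeR or DESeq2. T cell markers summed to 22.2, 18.0, 36.8 and 10.8 CPM in the CysF libraries, against 14.2, 13.2, 21.4 and 20.4 CPM in the CTRL libraries, and 0 of 12 B cell markers and 1 of 12 T cell markers had an unadjusted p under 0.05 (0 past edgeR or DESeq2). Cd4, a co-receptor of helper T cells, had 9.07, 1.77, 6.05 and 1.11 CPM in the CysF libraries, against 1.59, 1.74, 2.09 and 1.08 CPM in the CTRL libraries, with overlap. For Cd4 the difference was 1.46 ± 0.64 (SE, adjusted p = 0.323). Endothelial markers had 1 of 14 higher and 1 lower at an unadjusted p under 0.05; Vwf, von Willebrand factor, had 84.2, 89.1, 95.0 and 85.8 CPM in the CysF libraries, against 72.7, 53.4, 54.3 and 63.0 CPM in the CTRL libraries, without overlap (0.54 ± 0.12 SE, adjusted p = 0.0817), the member that DESeq2 called. Smooth muscle and pericyte markers had 3 of 10 higher and 1 lower, and nerve and glia markers 2 of 11 higher, with 0 past edgeR or DESeq2; Myh11, smooth muscle myosin, differed by 0.60 ± 0.22.

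Among all protein-coding genes that did not pass, those with the largest differences at a mean of at least 5 CPM and without overlap were taken, up to 8 on each side and with members of the lists among them. The higher ones included Slc10a6, a transporter of sulfated steroids: Slc10a6 had 5.23, 7.96, 7.35 and 12.5 CPM in the CysF libraries, against 2.65, 1.74, 2.96 and 4.18 CPM in the CTRL libraries. For Slc10a6 the difference was 1.53 ± 0.28 (SE, adjusted p = 0.0512). Sult1e1, the oestrogen sulfotransferase, had 30.0, 19.0, 18.9 and 11.2 CPM in the CysF libraries, against 7.79, 7.50, 4.59 and 5.89 CPM in the CTRL libraries. For Sult1e1 the difference was 1.62 ± 0.39 (SE, adjusted p = 0.104). Ms4a4a, a membrane protein of macrophages, differed by 1.67 ± 0.36 (SE, adjusted p = 0.0775). Tlr7, a receptor for single-stranded RNA in immune cells, had 66.9, 27.4, 66.5 and 20.1 CPM in the CysF libraries, against 12.3, 15.7, 16.1 and 18.9 CPM in the CTRL libraries (1.52 ± 0.41 SE, adjusted p = 0.145), again highest in CysF libraries 7 and 10. Egr2, an immediate early factor, differed by 1.65 ± 0.43 and Slfn1, an interferon-inducible schlafen gene with close paralogues, by 1.55 ± 0.40. Col1a1 and Oas3, given above, complete the 8. On the lower side, Rasl12, a small GTPase gene with little spread within each diet, had 33.0, 39.4, 32.1 and 34.5 CPM in the CysF libraries, against 64.9, 73.1, 67.2 and 57.0 CPM in the CTRL libraries. For Rasl12 the difference was -0.92 ± 0.17 (SE, adjusted p = 0.0512). Inhbb, a subunit of activin and inhibin expressed by fat cells, had 29.8, 45.7, 34.1 and 35.6 CPM in the CysF libraries, against 68.5, 73.0, 51.8 and 72.0 CPM in the CTRL libraries. For Inhbb the difference was -0.87 ± 0.22 (SE, adjusted p = 0.125). Rasd1, a dexamethasone-inducible Ras gene, differed by -1.27 ± 0.44, Btg3 by -0.95 ± 0.32 and Tcf15, a helix-loop-helix factor, by -0.88 ± 0.18; Npas2 and Acsm3 stand above.

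The response was next set against that of Cth-/- mice, for which 4208 genes (25.4%; 11.8% higher and 13.6% lower) passed for the diet in the same fit. The difference of the diet effects, Cth+/+ minus Cth-/-, passed for 3600 genes (21.7%), 2046 positive (12.4%) and 1554 negative (9.39%). Without Cth-/- CysF library 20, in which 31.3% of counts were mitochondrially encoded, 3671 passed. For the matrix list the difference passed for 36 of 46 genes, all positive; in Cth-/- mice 36 of the 46 fell and 1 rose. Col1a1 differed between the genotypes by 5.51 ± 0.61 (SE, adjusted p = 6.68e-05), at 1.46 ± 0.41 in Cth+/+ and -4.05 ± 0.46 in Cth-/- mice. For interferon genes 23 of 26 passed, all positive, and for cell cycle genes 15 of 25; in Cth-/- mice 20 of the 26 and 12 of the 25 fell, and 1 cell cycle gene rose. Macrophage markers passed for 13 of 16, all positive. Fibroblast and progenitor markers passed for 14 of 16 as positive and 1 as negative, and in Cth-/- mice 13 of the 16 fell and 1 rose, with a median of -1.58. In B cell markers the difference passed for 9 of 12, all positive, and 12 of 12 fell in Cth-/- mice. The Cth-/- CTRL libraries were uneven in the 2 named ones, with 5.07 ± 9.00 CPM for Cr2 and 6.97 ± 10.7 CPM for Cd22 (SD). Whether the B cell falls rest on few CTRL libraries was not tested. The part of the macrophage, fibroblast and B cell markers in the matrix and interferon values was not tested either.

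Nuclear genes of oxidative phosphorylation and genes of fatty acid oxidation had mostly negative differences between the genotypes. The difference was negative and passed for 45 of 51 genes of oxidative phosphorylation, and negative for 27 and positive for 1 of 34 genes of fatty acid oxidation. In Cth-/- mice 41 of the 51 and 26 of the 34 rose, and none fell. Of 13 mitochondrially encoded genes 2 passed as negative, and 4 rose in Cth-/- mice. Ucp1 differed by -5.05 ± 1.43 (SE, adjusted p = 0.0202), at -2.05 ± 1.02 in Cth+/+ and 3.00 ± 1.01 in Cth-/- mice. Asns differed by -1.16 ± 0.19 (SE, adjusted p = 0.000809) and Cbs by -1.73 ± 0.36 (SE, adjusted p = 0.00373), both with positive changes in Cth-/- mice (0.73 ± 0.13 and 1.22 ± 0.25). Of the 10 named genes past the test in Cth+/+ mice, 7 rose in Cth-/- mice as well: Hif3a, Doc2b, Fam107a, Fkbp5, Rnf169, Pawr and Per2. Fkbp5 rose by 2.10 ± 0.33 in Cth-/- mice, and the difference of -0.14 ± 0.45 (SE, adjusted p = 0.859) did not pass. Doc2b rose more in Cth-/- mice (2.49 ± 0.24; difference -0.98 ± 0.34 (SE, adjusted p = 0.0481)). Echdc3 rose in Cth-/- mice (0.57 ± 0.09), against its fall in Cth+/+ mice, and the difference of -1.12 ± 0.13 (SE, adjusted p = 9.32e-05) passed. Wee1 changed by 0.35 ± 0.23 in Cth-/- mice (adjusted p = 0.3), with a difference of 1.04 ± 0.33 (SE, adjusted p = 0.0364). Of the 26 glucocorticoid and fasting genes, 14 rose and 1 fell in Cth-/- mice. The difference between the genotypes passed for 2 of the 26 as positive and for 5 as negative. Mt1, Lcn2 and Igfbp3 of that list rose in Cth-/- mice and differed by -0.10 ± 0.30, 0.12 ± 0.62 and -0.03 ± 0.21 in Cth+/+ mice, genes picked after their values were seen.

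**Figure D4:**
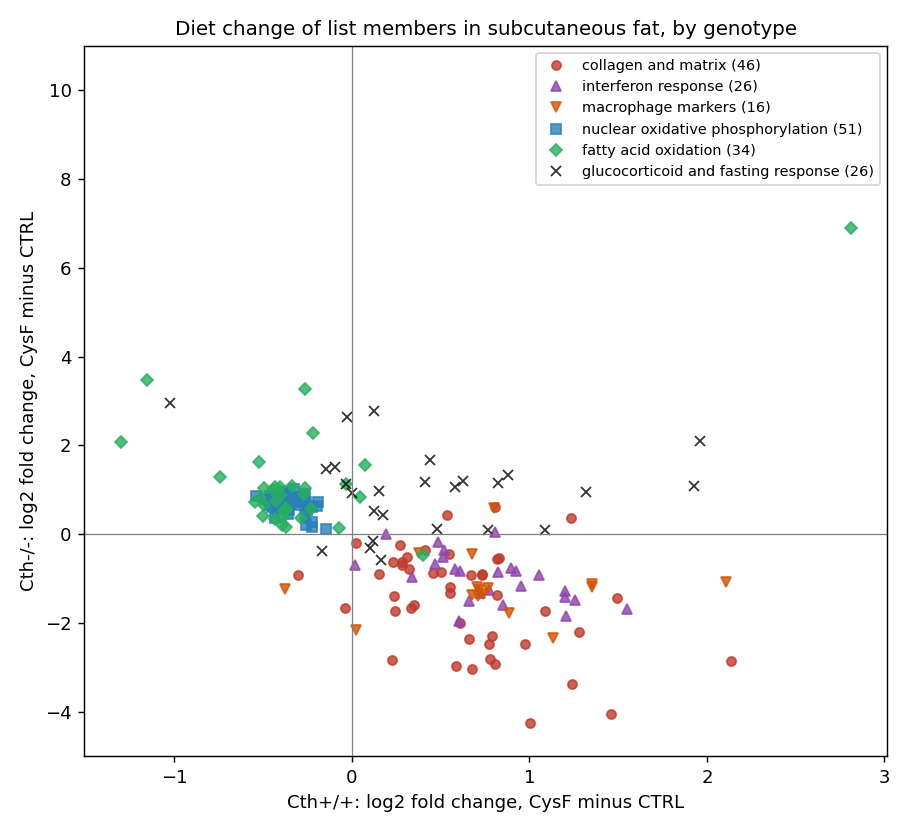
Log2 fold change of the diet, CysF minus CTRL, in Cth+/+ subcutaneous fat (x axis) and in Cth-/- subcutaneous fat (y axis) for the members of 6 gene lists. Matrix, interferon and macrophage genes lie mostly at the lower right, higher in Cth+/+ and lower in Cth-/- mice, and the genes of oxidative phosphorylation and most of fatty acid oxidation at the upper left; the glucocorticoid and fasting genes, Fkbp5 and Hif3a among them, lie mostly above 0 on the y axis.

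Finally, the Cth+/+ diet effect in subcutaneous fat was set against those in the other depots, in a fit of all 48 libraries over 18348 genes. In edgeR the difference from BAT passed for 0 genes (0.0%), and DESeq2 called 9. At an unadjusted p under 0.05 there were 1029 (5.61%), 649 positive (3.54%) and 380 negative (2.07%). The difference from EFAT passed for 0 genes in edgeR (0.0%) and 8 in DESeq2, with 1137 at an unadjusted p under 0.05 (6.2%), 679 positive (3.7%) and 458 negative (2.5%). In that fit the diet changed 158 genes (0.861%) in BAT of Cth+/+ mice and 0 in EFAT (605 or 3.3% unadjusted). Fkbp5 changed by 1.82 ± 0.38 in BAT (adjusted p = 0.00986) and by 1.25 ± 0.35 in EFAT, where it did not pass. Per2 rose by 2.48 ± 0.35 in BAT and Fam107a by 2.14 ± 0.46, and in EFAT they differed by 1.09 ± 0.33 and 0.77 ± 0.38. The Col1a1 difference, subcutaneous fat minus BAT, was 0.60 ± 0.50 and subcutaneous fat minus EFAT 1.33 ± 0.50, neither past the test.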

How the data were processed

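Expected counts for 47729 genes, not scaled, were deposited; the authors made them with STAR and RSEM on mm10, FastQC and Picard also being listed, per the submitters' processing notes. No version, annotation or strand setting was given. Non-whole values, 5.31 to 8.16% of each library, were rounded. Coordinates came from GENCODE M21 (47310 IDs matched without version suffix).

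Genes were tested with edgeR 4.0.16 (limma 3.58.1, R 4.3.3), quasi-likelihood F-test, two-sided, on the 16 subcutaneous libraries in 4 groups, which share the spread, with TMM scaling, filterByExpr (minimum count 10, minimum total 15) and Benjamini-Hochberg adjusted p under 0.05. Depots were compared in a fit of 48 libraries. DESeq2 1.42.0 served as an alternative. Tables, exact tests and plots used pandas 2.3.3, scipy 1.17.1 and matplotlib 3.10.9 (Python 3.11.15). The code was tested on simulated counts. Alternatives were RLE scaling, no filter, robust dispersion, the library set, a fit of the 8 libraries and left-out libraries; 2 left-out Cth-/- libraries and DESeq2 on the 8 libraries were added after the data were seen.

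Named genes are those past the diet test except predicted genes, a panel of 31 genes, per list (32 lists) the 2 most changed members above a mean of 1 CPM, and up to 8 of the highest and of the lowest protein-coding genes that did not pass (mean of at least 5 CPM, no overlap); not all are described, and some are not reported here. The comparison, lists (675 genes, 656 tested) and members were chosen with earlier results of these data known. Lists are described by counts and medians, without a test.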

Additional observations from a re-analysis of the deposited data

Results flagged for a closer look

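A single library stood apart from the other 3 of its group, by the ratio of its gap to the range of the group (beyond Dixon's 95% critical value). This held in 14 of 208 groups tested, 2 for each of 104 named genes, where chance flags about 1 in 20. In CysF library 10 this held for Ucp1 at 19.4 CPM (0.991 to 3.64 in the others), Irs2 at 76.9 CPM (30.2 to 33.1 in the others), Cr2 at 5.92 CPM (0.104 to 0.390 in the others), Krt18 at 5.76 CPM (0.0346 to 0.781 in the others) and Epcam at 4.74 CPM (0.0346 to 0.360 in the others). Krt18 and Epcam mark epithelium and Cr2 B cells. In CTRL library 3 it held for Wee1 at 1.67 CPM (2.56 to 2.69 in the others), Gclm at 29.9 CPM (47.5 to 48.7 in the others), Col6a5 at 3.29 CPM (1.12 to 1.48 in the others) and Plin1 at 2179 CPM (1697 to 1754 in the others). In CTRL library 4 it held for Acsm3 at 33.4 CPM (15.8 to 18.8 in the others), Fdft1 at 72.3 CPM (79.1 to 80.5 in the others) and Btg3 at 11.0 CPM (8.30 to 8.44 in the others). In CTRL library 2 it held for Hk1 at 36.5 CPM (28.3 to 29.5 in the others) and Myh11 at 42.2 CPM (62.3 to 65.6 in the others).

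For 28 of the 54 genes named as past the test, in the panel or by size, the diet effect differed between Cth+/+ and Cth-/- mice (edgeR interaction, adjusted p under 0.05). Over all tested genes the share was 21.7%. Genes past the test or taken by size were chosen for their Cth+/+ difference, which is part of this interaction. The 2 shares therefore cannot be compared, and the genes are listed for their values only. Values are log2 differences ± SE, Cth+/+ minus Cth-/-. It was negative for the genes Ucp1 (-5.05 ± 1.43), Dio2 (-3.85 ± 0.92), Cidea (-2.68 ± 0.55), Elovl3 (-3.08 ± 1.01), Ppargc1a (-1.62 ± 0.32), Mfsd2a (-2.76 ± 0.94) and Cyp2b10 (-5.09 ± 0.95). It was also negative for the sulfur and amino acid stress genes Cbs (-1.73 ± 0.36), Gclc (-0.88 ± 0.15), Chac1 (-1.66 ± 0.39) and Asns (-1.16 ± 0.19). The lipid genes Pnpla2 (-1.23 ± 0.18) and Acsm3 (-4.63 ± 0.50) and the regulators Btg3 (-1.65 ± 0.44) and Tcf15 (-1.18 ± 0.26) followed the same sign, as did Doc2b (-0.98 ± 0.34) and Echdc3 (-1.12 ± 0.13). It was positive for the collagen genes Col1a1 (5.51 ± 0.61) and Col3a1 (5.26 ± 0.42). The immune genes Oas3 (3.24 ± 0.55), Slfn1 (3.30 ± 0.57), Tlr7 (2.38 ± 0.58) and Ms4a4a (1.85 ± 0.49) were positive too, as were Wee1 (1.04 ± 0.33), Hmox1 (1.32 ± 0.34), Egr2 (2.01 ± 0.60), Sult1e1 (3.44 ± 0.56) and Inhbb (1.21 ± 0.32). The adjusted p ranged from 5.16e-06 to 0.0481.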

How the results depend on the processing

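The 11 genes past the diet test in Cth+/+ mice kept their sign under all 19 alternatives. Their groups did not overlap, which left little room for a change of sign. The number past the test moved. It was 18 with RLE scaling, 7 without the low-count filter, 64 with the library set as a term and 1053 within set B. DESeq2 gave 400, and in the fit of the 8 Cth+/+ libraries edgeR gave 3 and DESeq2 367. Of the 11, 6 were called without the filter, 7 within set B and 3 among the 13 within set A. Leaving out 1 library gave 0 to 199. Added after the data were seen, the fits without Cth-/- CysF library 20 or CTRL library 14 gave 25 and 4. The genes whose diet effect differed from Cth-/- mice numbered 2122 within set A, 2840 within set B, where Cth-/- CysF rests on 1 library, and 2745 to 4293 otherwise. The difference from BAT passed for 9 genes and that from EFAT for 8 with DESeq2, and EFAT gave 0 to 1 with 1 library left out. With the replicate block 6 genes passed for BAT and 2 for EFAT, but the numbers were not taken to pair the libraries, since the labels do not say so. Deviations of libraries with the same number correlated at -0.110 to 0.269 with BAT and -0.0507 to 0.318 with EFAT, and not every library correlated best with its own number. No paired analysis was possible for the diet effect because the CysF and CTRL libraries share no number. Within set A and set B the list medians (log2) were 0.18 and 0.43 for amino acid transporters, 0.093 and 0.38 for the unfolded protein response, and 0.30 and 0.88 for matrix genes. They were 0.38 and -0.29 for endothelial and -3.32 and 1.60 for muscle markers. Within set A they were 0.41 for glucocorticoid genes, -3.39 for epithelial and 0.39 for smooth muscle markers. With 1 library left out, medians ran from -0.29 to -0.17 for glutathione genes, -0.25 to 0.040 for NRF2 targets and 0.19 to 0.35 for amino acid transporters. They ran from -0.31 to -0.14 for coenzyme A synthesis, -0.048 to 0.13 for clock genes, 0.18 to 0.43 for glucocorticoid genes and -3.81 to -0.37 for epithelial markers. The other 586 of 608 list values stayed within the spread, and no named gene past the test changed sign. Medians for fatty acid synthesis ran from -0.39 to -0.018 and for triglyceride assembly from -0.22 to 0.043 with 1 library left out. The causes were not tested. At 16.2 to 32.9 M counts a library, genes near 1 CPM rested on few reads.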
